A study of Homo sapiens with 6 samples.

Results

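Small nucleolar RNA (snoRNA) host noncoding genes are genes whose introns carry snoRNAs and whose spliced transcript has no long reading frame. The genes were taken by name: every gene of the count table whose symbol is SNHG followed by a number, together with EPB41L4A-AS1, GAS5, ZFAS1 and DANCR. This rule found 11 of the 27745 genes in the table, namely SNHG8, SNHG9, SNHG15, SNHG18, SNHG19, SNHG25, SNHG27, SNHG28, SNHG30, SNHG32 and EPB41L4A-AS1. GAS5, ZFAS1, DANCR and the other SNHG genes were not analysed here.

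RNA-seq was performed in MDA-MB-231 cells (MDA-MB231 in the labels), an established triple-negative breast cancer cell line, to ask which genes respond to loss of the long noncoding RNA (lncRNA) MIR100HG. Cells were infected with a lentivirus carrying the sh-TRC control vector or 1 of 2 short hairpin RNAs against MIR100HG, sh-MIR100HG-1 and sh-MIR100HG-2, and the study's methods give 72 h from infection to collection. Each of the 3 groups held 2 samples, 6 in all. The study calls the knockdown samples biological replicates and the sources used here do not say this of the sh-TRC pair, so the p-values measure the spread between these samples, which may be technical in the controls. All groups were infected populations of 1 cell line grown without any other treatment named in the labels, so no uninfected cells and no second line enter the comparisons.

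Most snoRNAs in human cells are made from introns. The host transcript is spliced, the intron is opened and trimmed, and the snoRNA is kept inside a protein particle in the nucleolus, where box C/D snoRNAs guide ribose methylation and box H/ACA snoRNAs guide pseudouridylation of ribosomal and spliceosomal RNA. The exons of noncoding hosts leave the nucleus as short RNAs that translating ribosomes can expose to nonsense-mediated decay, so their level need not follow the level of the snoRNA. Several noncoding hosts begin with a terminal oligopyrimidine (TOP) tract, as ribosomal protein mRNAs do. The libraries measured the host transcripts, and the trimmed snoRNAs themselves were not analysed here.

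The snoRNAs inside the hosts are shown because they are what defines these genes. In the GRCh37 annotation, 7 of the 11 hosts enclosed at least 1 snoRNA. For the box C/D snoRNAs, capitals mark the C box (TGATGA) and the D box (CTGA), and for the box H/ACA snoRNA they mark the H box (ANANNA) and the ACA near the 3′ end, each read 5′ to 3′ on the strand of the host:
SNORD48, in SNHG32, chr6:31803040-31803103, + strand: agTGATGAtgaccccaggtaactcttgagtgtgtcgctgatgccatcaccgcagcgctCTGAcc
SNORD52, in SNHG32, chr6:31804853-31804919, + strand: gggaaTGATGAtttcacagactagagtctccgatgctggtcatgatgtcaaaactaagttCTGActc
SNORD104, in SNHG25, chr17:62223443-62223512, + strand: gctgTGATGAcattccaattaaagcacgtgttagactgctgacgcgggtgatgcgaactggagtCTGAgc
SNORD60, in SNHG19, chr16:2205024-2205106, - strand: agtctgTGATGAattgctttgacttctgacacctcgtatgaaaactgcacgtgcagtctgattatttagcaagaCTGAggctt
SNORD7, in SNHG30, chr17:33900676-33900772, + strand: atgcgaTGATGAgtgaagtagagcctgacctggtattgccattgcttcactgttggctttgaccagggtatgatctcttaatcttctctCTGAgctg
SNORD123, in SNHG18, chr5:9548948-9549017, + strand: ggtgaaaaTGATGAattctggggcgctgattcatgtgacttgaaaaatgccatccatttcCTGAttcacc
SNORA13, in EPB41L4A-AS1, chr5:111497182-111497314, + strand: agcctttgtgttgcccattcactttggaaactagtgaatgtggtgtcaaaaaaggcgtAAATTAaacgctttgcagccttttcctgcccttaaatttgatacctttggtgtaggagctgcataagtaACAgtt

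The C box of these snoRNAs began between base 3 and base 9, and the D box began close to the other end, at base 59 of 64 in SNORD48 and at base 61 of 70 in SNORD123. The bases between the boxes, which include the guide sequence, differed from one snoRNA to the next. SNORD104, SNORD60, SNORD7, SNORD123 and SNORA13 lay wholly between the exon blocks that were counted. SNORD48 lay partly, and SNORD52 wholly, inside a counted exon block of SNHG32, so some bases of both were part of the gene's counted length. SNHG28 enclosed a copy annotated as SNORD64 in which the D box letters were present and the C box letters were not. By gene order in RefSeq, SNORA24 sat with SNHG8, SNORA9 with SNHG15 and SNORA78 with SNHG9, and these are named only. No snoRNA lay within the counted bounds of SNHG27.

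The first bases of the transcripts are shown for the hosts with a TOP-like start. The motif searched was a C at the annotated start followed by at least 4 bases that are C or T, on the strand of the gene, in the RefSeq promoter table (GRCh38.p14), which held 8 of the 11 hosts. Each window runs from 10 bases before the start to 25 bases from the start on, and capitals mark the run that begins with the start base:
SNHG32, chr6:31834906-31834940, + strand: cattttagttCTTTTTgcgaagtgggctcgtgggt
SNHG19, chr16:2155334-2155368, - strand: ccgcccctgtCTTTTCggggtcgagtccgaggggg
SNHG18, chr5:9546190-9546224, + strand: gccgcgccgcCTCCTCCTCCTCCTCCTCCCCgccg
SNHG8, chr4:118278752-118278786, + strand, no run at the start base: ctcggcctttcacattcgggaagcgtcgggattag

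The motif stood at the start base of 3 of the 8 hosts (37.5%), SNHG18, SNHG19 and SNHG32, with runs of 21, 6 and 6 bases. Counting a run that began within 5 bases of the start added SNHG8, giving 4 of 8 (50%). Over all 35097 RefSeq promoters the shares were 4.07% at the start and 21.1% within 5 bases, and over 79 ribosomal protein genes they were 58.2% and 72.2%. A match is a description of the letters at an annotated start, which can lie some bases from the start used in these cells.

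Total counts per sample ranged from 43804736 to 64588388, and the samples of a group differed from each other by more than counting noise (chi-square per degree of freedom from 122.9 to 179.1 over genes). MIR100HG, the targeted gene, had 41.8 and 58.5 CPM (normalized counts relative to library size) in sh-TRC, 15.2 and 13.2 in sh-MIR100HG-1, and 16.6 and 10.4 in sh-MIR100HG-2. All 4 knockdown samples were below both controls, with a log2 fold change (log2FC) of -1.86 (SE 0.25). By edgeR its unadjusted p was 5.6e-05 (adjusted p = 0.381), and the exact permutation test, two-sided, gave p = 0.0667, the smallest that 4 samples against 2 allow. The adjusted p passed 0.05 with no filter on low counts (2.77e-10), with the likelihood ratio test (1.21e-06) and with DESeq2 (5.2e-07). VIM, CD44 and EGFR, which MDA-MB-231 cells express, had group means between 422 and 1933 CPM. PGR was at or near 0, ESR1 at 0.137 to 1.69 CPM, CDH1 at 1.95 to 4.90 CPM and PTPRC, of leukocytes, at 0.126 to 0.548 CPM, while ERBB2 was present at 84.5 to 103 CPM.

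All 11 host genes passed the filter on low counts, and their levels ranged from rank 2 to rank 1061 among the 7252 lncRNA genes. Levels were compared between genes per length, as TPM, a length-scaled share of the library computed from the counts and the deposited gene lengths. SNHG32, formerly C6orf48, had 424 ± 29.2 TPM (SD, n = 2) in the controls (rank 2), and SNHG8 had 175.6 ± 43.3 TPM (rank 5). SNHG25 (71.9 ± 30.2 TPM, rank 11), SNHG19 (41.7 ± 13.6 TPM, rank 21) and SNHG15 (29.1 ± 8.29 TPM, rank 33) followed.

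EPB41L4A-AS1, an antisense transcript that hosts a pseudouridylation guide, had 22.8 ± 7.14 TPM in the controls (rank 46) and SNHG30 had 19.6 ± 2.5 TPM (rank 60). The other 4 hosts were low: SNHG9 at 3.54, SNHG18 at 2.59, SNHG28 at 1.02 and SNHG27 at 0.618 TPM. In the controls, SNHG32 stood above SNHG8, SNHG8 above SNHG25 and SNHG30 above SNHG9 without overlap. The other neighbours in this order overlapped between the 2 control samples, although SNHG15 was above EPB41L4A-AS1 within each of the 6 samples. SNHG25 and SNHG19 have the shortest counted lengths of the 11, 278 and 342 bases, and had fewer counts than SNHG15, at 3647 bases.

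**Figure D1:**
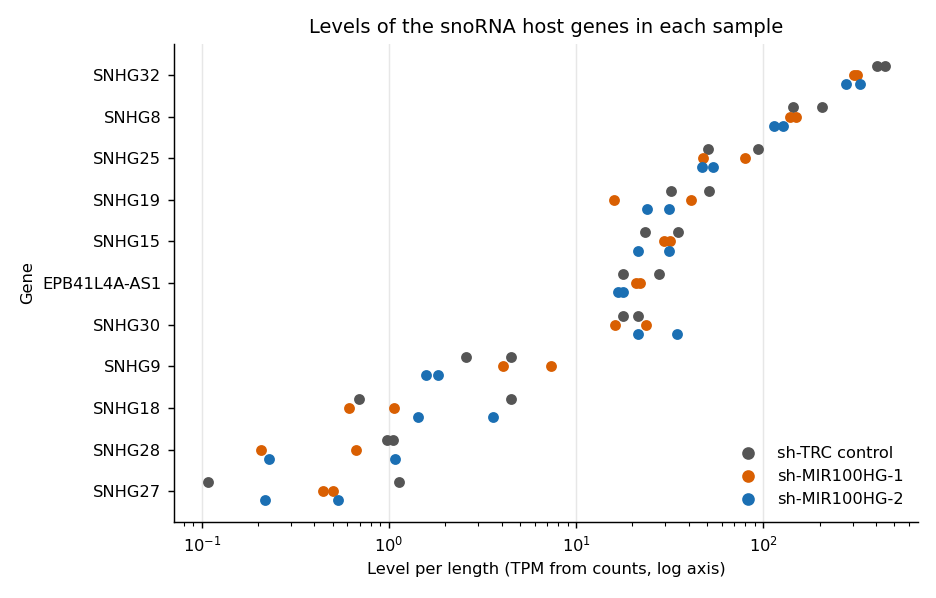
Level of each snoRNA host noncoding gene in each of the 6 samples, as TPM computed from the counts on a log axis, with 1 point per sample, coloured by group. SNHG32 lies above SNHG8, and SNHG8 above every other host, in all 6 samples. The 7 highest hosts are separated from the 4 lowest in every sample, and SNHG18 and SNHG27 spread over the widest range within the control group.

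SNHG32, host of the C/D box snoRNAs SNORD48 and SNORD52, had the highest level of the 11 on both scales. The summed CPM of the 11 genes was 299.8 and 302.2 in the controls, 233.4 and 260.8 with sh-MIR100HG-1, and 206.05 and 263.8 with sh-MIR100HG-2. SNHG32 made up between 59.8% and 69.9% of that sum of reads in each sample. Its share of the summed TPM, which takes counted length into account, was between 47.6% and 58.6%. Without SNHG32 the sums were 119.8 and 91.1 CPM in the controls against 79.4 to 104.4 CPM in the 4 knockdown samples, which overlap.

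The knockdown comparison set both hairpins together against sh-TRC. Of the 11 host genes, 9 had a fitted log2FC below 0 and 2 above it, with a median of -0.35 and a range from -0.89 to 0.34. By group mean CPM 8 were lower and 3 higher, since SNHG9, with hairpins on opposite sides of the control, had a mean of 0.494 CPM in the controls and 0.534 CPM in the knockdown samples beside a fitted log2FC of -0.12. Counts of genes lower or higher below follow the sign of the fitted log2FC. None of them passed an adjusted p of 0.05 (edgeR quasi-likelihood test with Benjamini-Hochberg adjustment over 15372 genes, of which 0% passed), and none had an unadjusted p under 0.05, against 7.68% of all genes tested. DESeq2 and the likelihood ratio test likewise called 0 of the 11, beside 129 and 109 of all 15372 genes tested.

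The median of all genes tested was -0.04, with 54.4% of them lower. The 1132 lncRNA genes tested as a class had a median of -0.21 with 66.9% lower, and were not compared with the hosts by a test. In the knockdown comparison, the direction of the hosts as a group rested on 1 library. Without sh-TRC replicate 1, only 5 of the 11 hosts had a log2FC below 0 and their median was 0.12. The median of the lncRNA genes was then -0.08 with 54.4% lower. Without that control, the median of the hosts was 0.17 with sh-MIR100HG-1 alone (5 of the 11 lower). With sh-MIR100HG-2 alone it kept its sign, at -0.25 (7 lower).

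SNHG32 had 180.0 and 211.2 CPM in sh-TRC, 139.5 and 156.4 with sh-MIR100HG-1, and 126.7 and 165.0 with sh-MIR100HG-2. All 4 knockdown samples were below both controls, the only host for which this was so, against 17.5% of all genes with groups that did not overlap and 9.08% lower without overlap. Group means were 195.6 ± 22.01 CPM in the controls, 147.9 ± 11.9 CPM and 145.9 ± 27.1 CPM (SD, n = 2 each). In such bulk samples, fewer cells that express a gene and less of its RNA per cell cannot be told apart.

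The log2FC of SNHG32 was -0.41 (SE 0.19, 95% interval -0.85 to 0.03). By edgeR its unadjusted p was 0.0616 and its adjusted p was 0.665. The log2FC was -0.40 for the first hairpin and -0.42 for the second, which differed by -0.02 (95% interval -0.53 to 0.49). The gene stayed lower whichever sample was left out, with a log2FC between -0.52 and -0.29. Its unadjusted p ranged from 0.032 to 0.276 over all alternatives and its adjusted p from 0.448 to 1. In the newer annotation its row overlaps a second lncRNA gene on the same strand, so reads of that gene could be part of its counts.

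SNHG8, host of SNORA24, had 47.1 and 35.3 CPM in sh-TRC, 32.6 and 37.7 with sh-MIR100HG-1, and 29.7 and 29.6 with sh-MIR100HG-2. Both sh-MIR100HG-2 samples lay below every other sample, and the sh-MIR100HG-1 samples overlapped the controls. Its knockdown log2FC was -0.35 (SE 0.20, unadjusted p = 0.118, edgeR adjusted p = 0.718), from -0.23 with the first hairpin to -0.48 with the second. Without sh-TRC replicate 1 these values were -0.13, -0.01 and -0.25, and without sh-TRC replicate 2 they were -0.55, -0.42 and -0.67. The hairpins did not differ beyond error (difference -0.25, 95% interval -0.79 to 0.30).

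EPB41L4A-AS1 had 23.1 and 15.7 CPM in sh-TRC, 17.7 and 20.04 with sh-MIR100HG-1, and 15.2 and 15.6 with sh-MIR100HG-2. The first control sample was the highest of the 6, and both sh-MIR100HG-2 samples were lowest, by a narrow margin below the second control. Its log2FC was -0.19 (SE 0.23, 95% interval -0.72 to 0.35), and 0.12 without that first control. The gene overlaps EPB41L4A on the opposite strand, and whether counting used strand is not given in the sources used here, so some of its reads could belong to that gene. EPB41L4A itself had 18 to 41 counts per sample, against 690 to 1241 for EPB41L4A-AS1.

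SNHG15, known as a short-lived transcript that accumulates under stress, had 31.6 and 22.3 CPM in sh-TRC, 27.2 and 31.7 with sh-MIR100HG-1, and 19.7 and 32.1 with sh-MIR100HG-2. The groups overlapped throughout, and the highest and lowest of the 6 values both came from sh-MIR100HG-2. Its log2FC was 0.04 (SE 0.26, 95% interval -0.57 to 0.64), and the sign turned to -0.03 with upper quartile scaling and to -0.19 without sh-TRC replicate 2.

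SNHG30, host of SNORD7, ran the other way. It had 6.87 and 6.10 CPM in sh-TRC, 5.28 and 8.45 with sh-MIR100HG-1, and 7.03 and 12.5 with sh-MIR100HG-2, so that both sh-MIR100HG-2 samples were above both controls. Its log2FC was 0.34 (SE 0.33, 95% interval -0.42 to 1.10), the highest of the 11, and did not pass the test. It was 0.09 without sh-MIR100HG-2 replicate 2, 0.15 without sh-MIR100HG-1 replicate 2 and 0.52 without sh-MIR100HG-2 replicate 1.

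SNHG25, host of SNORD104, had 6.42 and 3.70 CPM in sh-TRC, 5.60 and 3.64 with sh-MIR100HG-1, and 3.31 and 4.17 with sh-MIR100HG-2. SNHG19, host of SNORD60, had 2.72 and 4.62 CPM in sh-TRC, 3.58 and 1.49 with sh-MIR100HG-1, and 2.71 and 2.28 with sh-MIR100HG-2. Samples of 1 group differed by up to 1.73-fold for SNHG25 and 2.41-fold for SNHG19, and their log2FC of -0.28 (SE 0.35) and -0.54 (SE 0.43) came with 95% intervals of -1.08 to 0.52 and -1.52 to 0.44. Without sh-TRC replicate 1, SNHG25 turned to 0.17 and SNHG19 moved to -0.88. SNHG19 was at -0.11 without sh-TRC replicate 2, -0.93 without sh-MIR100HG-1 replicate 1 and -0.30 without sh-MIR100HG-1 replicate 2.

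**Figure D2:**
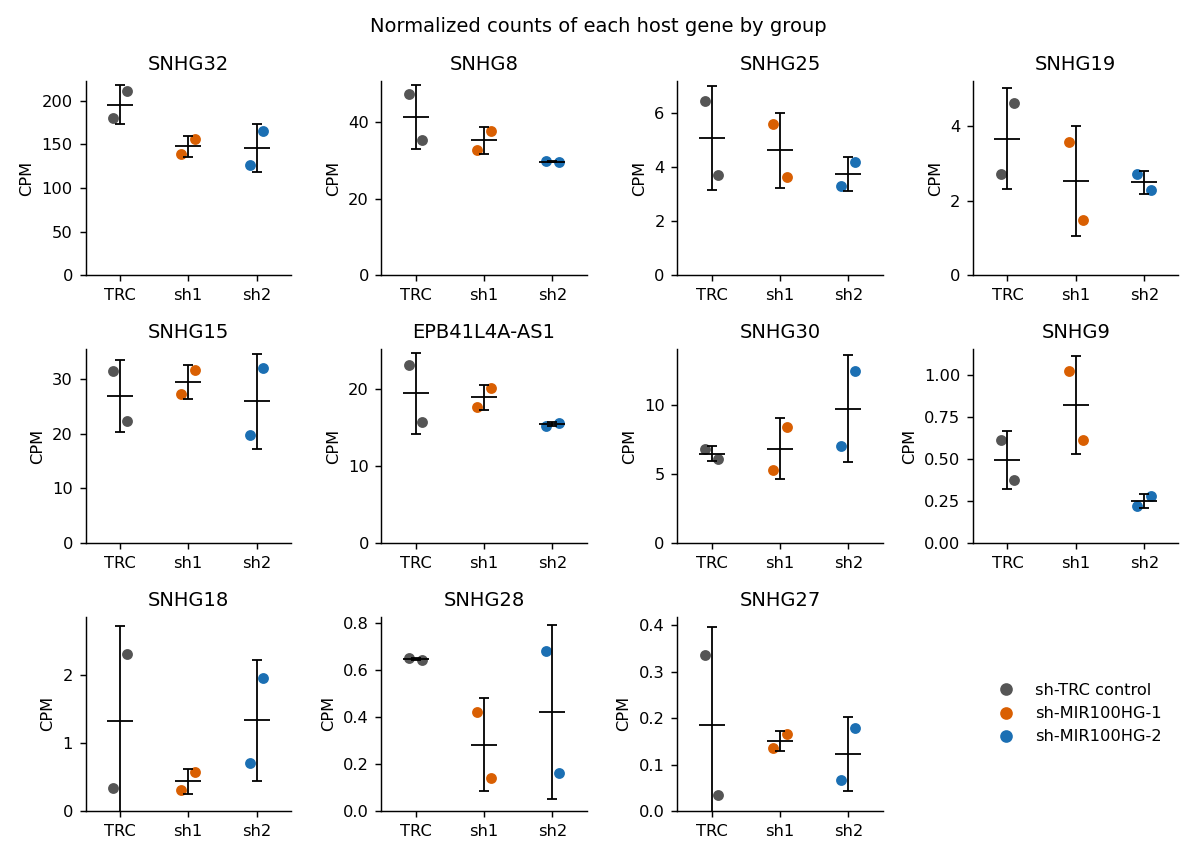
CPM of each snoRNA host noncoding gene in the sh-TRC control, sh-MIR100HG-1 (sh1) and sh-MIR100HG-2 (sh2) samples, with 1 point per sample, a line at the group mean and bars for the SD (n = 2), cut at 0. SNHG32 is the only host with all 4 knockdown samples below both controls, as 9.08% of all genes tested were. SNHG9 is highest with sh1 and lowest with sh2, and the control samples of SNHG18 and SNHG27 lie far apart.

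The remaining hosts had few counts. SNHG18 had 18 and 136 counts in sh-TRC, 20 and 24 with sh-MIR100HG-1, and 32 and 98 with sh-MIR100HG-2, a 6.90-fold gap in CPM within the controls. SNHG28 had 35 and 38 counts in the controls and 28, 6, 31 and 8 in the knockdown samples, and SNHG27 had 18 and 2 against 9, 7, 3 and 9. In SNHG28 and SNHG27 samples of the same group differed by up to 4.28-fold and 9.86-fold in CPM.

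Their knockdown log2FC were -0.81 (SE 0.75) for SNHG18, -0.89 (SE 0.67) for SNHG28 and -0.42 (SE 0.87) for SNHG27, each with a 95% interval that included 0. SNHG18 was at -1.63 with sh-MIR100HG-1 and at 0.01 with sh-MIR100HG-2. Leaving out the second control turned SNHG18 to 1.17, and leaving out the first turned SNHG27 to 1.93. SNHG28 was at -0.55 without sh-MIR100HG-2 replicate 2 and at -1.58 without sh-MIR100HG-2 replicate 1. SNHG28 also overlaps VSIG8 on the same strand and SLAMF8 on the opposite strand, so part of its few counts could come from these genes.

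The spread between samples of 1 group differed widely among the hosts. On the log2 scale the within-group SD was 0.19 for both SNHG32 and SNHG8, 0.24 for EPB41L4A-AS1, and 0.36 to 0.58 for SNHG15, SNHG9, SNHG25, SNHG30 and SNHG19. SNHG27, SNHG28 and SNHG18 had 0.69, 0.75 and 1.16. In CPM, samples of 1 group differed by up to 9.86-fold, 4.28-fold and 6.90-fold for these 3, which is another order. The SD was taken after a pseudocount was added to each CPM, which shrinks it most for genes of low CPM. SNHG27 averaged only 0.153 CPM, so this SD does not rank the 3 by scatter. The median over all genes tested was 0.297, and it was smaller at greater depth, from 0.467 for genes with 5 to 50 counts per sample to 0.219 for those with 5000 to 50000. By this SD, SNHG15, SNHG18, SNHG19, SNHG25, SNHG27, SNHG28 and SNHG30 were more scattered than the median gene of their depth. SNHG8, SNHG9, SNHG32 and EPB41L4A-AS1 were less scattered. The medians between those depths were 0.386 for 50 to 500 counts and 0.252 for 500 to 5000. With the 7 hosts that averaged at least 100 counts per sample, the median knockdown log2FC was -0.28, with 5 of the 7 lower.

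**Figure D3:**
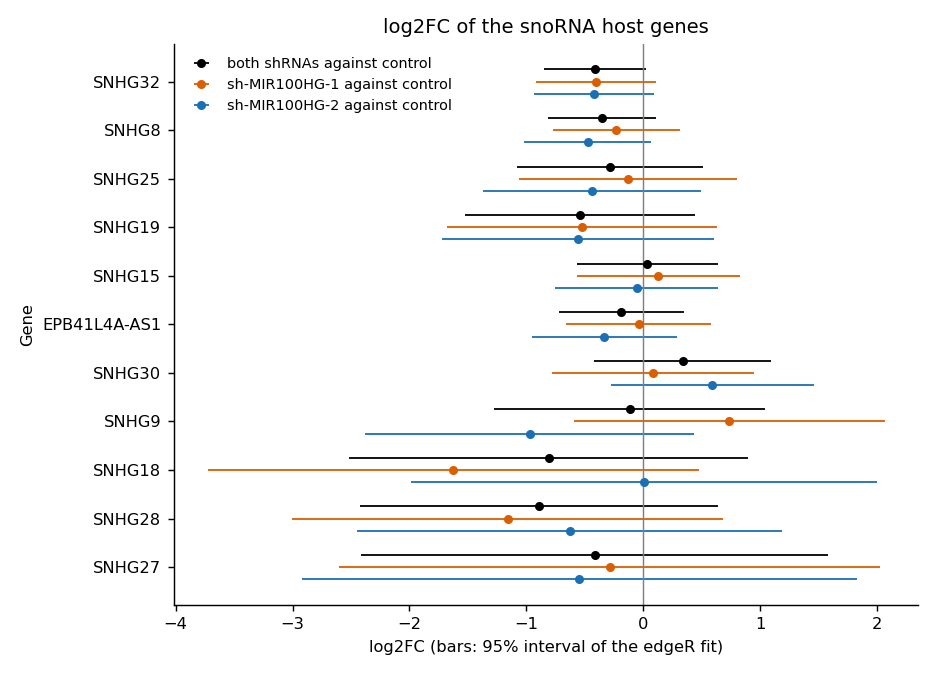
log2FC of each snoRNA host noncoding gene against the sh-TRC control for both hairpins together, sh-MIR100HG-1 and sh-MIR100HG-2, with bars for the 95% interval of the edgeR fit. Every interval includes 0. The intervals are narrowest for SNHG32 and SNHG8 and widest for the hosts with few counts. The 2 hairpins lie on opposite sides of 0 for SNHG9, SNHG15 and SNHG18.

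Taken singly, sh-MIR100HG-1 gave 8 of the 11 hosts lower (median log2FC -0.23, where 50.3% of all genes were lower) and sh-MIR100HG-2 gave 9 (median -0.44, 54.2%). Of the lncRNA genes tested, 56.1% were lower with sh-MIR100HG-1 (median -0.11) and 67.8% with sh-MIR100HG-2 (median -0.28). Both comparisons share the 2 control samples. With the first hairpin, 2 hosts (SNHG28 and SNHG32) did not overlap the controls, both lower, beside 40.5% of all genes without overlap and 20.2% lower without overlap. With the second, 5 hosts were lower without overlap (SNHG8, SNHG9, SNHG19, SNHG32 and EPB41L4A-AS1), beside 20.4% of all genes, and 1 was higher (SNHG30), beside 18.1%, where 38.5% of all genes did not overlap. No host had an unadjusted p under 0.05 with either hairpin, against 6.87% and 8.86% of all genes, and 0% of all genes passed the adjusted p.

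The hairpins were also compared with each other, which shows where the 2 reagents differed. With sh-MIR100HG-2, 8 of the 11 hosts were lower than with sh-MIR100HG-1, with a median difference of -0.18. Of all genes 51% were lower, and of the lncRNA genes tested 58.5%. Groups did not overlap for 3 hosts that were lower (23.3% of all genes) and 1 that was higher (20.6%), where 43.9% of all genes did not overlap. SNHG9 was the only host with an unadjusted p under 0.05, against 9.45% of all genes. SNHG9, host of SNORA78 on chromosome 16, had 0.61 and 0.37 CPM in sh-TRC, 1.02 and 0.61 with sh-MIR100HG-1, and 0.22 and 0.28 with sh-MIR100HG-2, from 10 to 68 counts per sample. Both sh-MIR100HG-2 samples were below the other 4.

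The SNHG9 difference between the hairpins was -1.71 on the log2 scale (SE 0.61, 95% interval -3.11 to -0.31). Its unadjusted p was 0.0226, with an edgeR adjusted p = 0.509. Against the control its log2FC was 0.74 with the first hairpin and -0.97 with the second. The unadjusted p ranged from 0.00864 to 0.153 over the alternatives and was above 0.05 without sh-MIR100HG-1 replicate 1, without sh-MIR100HG-2 replicate 1 and without sh-MIR100HG-2 replicate 2. The adjusted p ranged from 0.239 to 0.773. MIR100HG itself had like levels with both hairpins, with group means of 14.2 and 13.5 CPM.

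SNHG18, SNHG19 and SNHG9 begin within 1 kb of a protein-coding gene on the opposite strand, a divergent arrangement in which 2 transcripts start back to back. SNHG18 and SEMA5A, which encodes a semaphorin, start 125 bases apart. SEMA5A had 0.372 and 2.51 CPM in sh-TRC, 0.301 and 1.09 with sh-MIR100HG-1, and 0.881 and 2.18 with sh-MIR100HG-2. The same 2 samples, the second control and the second sh-MIR100HG-2 sample, were highest for SNHG18 and SEMA5A, and the same 2, the first control and the first sh-MIR100HG-1 sample, were lowest. Their rows do not overlap, so the same reads were not counted for both.

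SNHG19 and TRAF7, an E3 ubiquitin ligase gene, start 340 bases apart. TRAF7 had 54.6 and 82.4 CPM in sh-TRC, 57.8 and 41.2 with sh-MIR100HG-1, and 68.4 and 66.6 with sh-MIR100HG-2. The highest and the lowest sample were the same for SNHG19 and TRAF7, the second control and the second sh-MIR100HG-1 sample. SNHG9 and RPS2, a protein of the small ribosomal subunit, start 118 bases apart, and RPS2 had from 979 to 1496 CPM. Both were lowest in the first sh-MIR100HG-2 sample, but RPS2 was highest in the second sh-MIR100HG-2 sample and SNHG9 in the first sh-MIR100HG-1 sample.

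**Figure D4:**
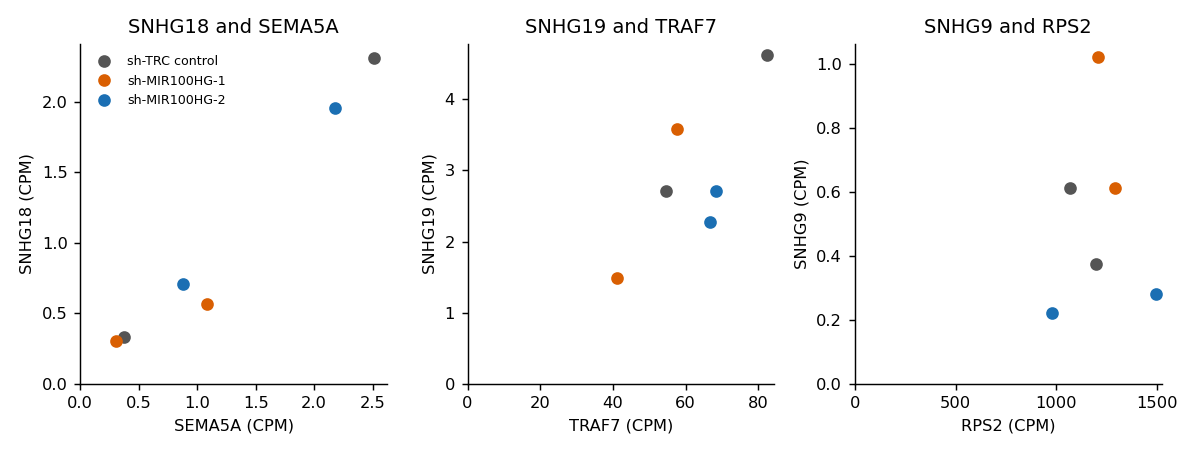
CPM of 3 snoRNA host noncoding genes (vertical axes) against the CPM of the protein-coding gene that starts back to back with each (horizontal axes), with 1 point per sample, coloured by group. SNHG18 and SEMA5A are high in the same 2 samples and low in the same 2. For SNHG9 and RPS2 the highest sample is not the same.

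The genes of the snoRNA pathway were read in the knockdown comparison from lists chosen with earlier results of these data known. By edgeR 0 of them passed an adjusted p of 0.05 (0% of all genes did). DESeq2 and the likelihood ratio test called 0 as well, beside 129 and 109 of all 15372 genes tested. Over 84 pathway genes tested, each counted once, 1 had an unadjusted p under 0.05, beside 7.68% of all genes.

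The core proteins of the snoRNA particles gave 3 higher and 1 lower of 4 for the C/D box (median log2FC 0.08) and 2 higher and 2 lower of 4 for the H/ACA box (median 0.07). FBL, the methyltransferase fibrillarin, had group means of 178, 203 and 246 CPM in sh-TRC and the 2 hairpins (log2FC 0.33, SE 0.21). NOP10, of the H/ACA core, had group means of 60.0, 57.7 and 81.0 CPM (log2FC 0.19, SE 0.20). Of 10 assembly factors 4 were higher and 6 lower (median -0.01), and RUVBL2, an ATPase of the assembly complex, had group means of 182, 163 and 199 CPM.

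Decay factors were read because noncoding hosts are decay substrates. Of 18 nonsense-mediated decay factors 10 were higher and 8 lower (median 0.04), with SMG5 at 166, 115 and 155 CPM in the 3 groups. Of 15 genes of the RNA exosome, which trims and degrades RNA from the 3′ end, 13 were higher and 2 lower (median 0.18). EXOSC3, a cap subunit, was the 1 pathway gene with an unadjusted p under 0.05.

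EXOSC3 had 23.9 and 23.7 CPM in sh-TRC, 29.7 and 35.2 with sh-MIR100HG-1, and 31.3 and 38.1 with sh-MIR100HG-2. All 4 knockdown samples were above both controls, as for 2 of the 15 exosome genes and 1291 of all 15372 genes tested. The edgeR fit gave EXOSC3 a log2FC of 0.50 (SE 0.20). Its unadjusted p was 0.0397 (edgeR adjusted p = 0.642). EXOSC5, the exosome gene with the highest level per length, had group means of 34.6, 31.6 and 45.4 CPM. Of 9 mRNAs known as targets of nonsense-mediated decay, 3 were higher and 6 lower (median -0.17), and ATF4, a stress-response transcription factor, had group means of 247, 293 and 250 CPM.

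Protein-coding genes that share features with the hosts were read last. Of 17 TOP genes outside the ribosome that were tested, 14 were higher and 3 lower (median 0.12), with EEF1A1, the translation elongation factor, at 6359, 7147 and 7325 CPM in the 3 groups. EEF1G, also on that list, was listed at 0 counts in every sample. The reason was not tested, and the value is not read here as absent RNA. Of 11 well-known protein-coding snoRNA hosts 7 were higher and 4 lower (median 0.05), and EEF2 had group means of 1618, 1626 and 1900 CPM.

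By annotation, 233 protein-coding genes enclosed a snoRNA, and 211 of them were tested. Of these, 132 were higher and 79 lower in the knockdown samples, with a median log2FC of 0.04, beside a median of -0.35 for the 11 noncoding hosts, which was 0.12 without sh-TRC replicate 1. The difference between the kinds of host was not tested. RPL13A, the highest per length, had group means of 1459, 1171 and 1474 CPM. At an unadjusted p under 0.05 there were 5 higher and 0 lower: POU2F2, GMEB1, COBLL1, NSD2 and USP32, against 3.23% of all genes higher and 4.44% lower.

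POU2F2, a lymphoid octamer-binding transcription factor, had 41.6 and 41.0 CPM in sh-TRC, 59.4 and 79.6 with sh-MIR100HG-1, and 149.0 and 113.8 with sh-MIR100HG-2. The 3 groups did not overlap, and its log2FC was 1.21 (SE 0.22). Its unadjusted p was 0.000498 (edgeR adjusted p = 0.381). DESeq2 and the likelihood ratio test called 129 and 109 of all 15372 genes tested. POU2F2 was the 1 protein-coding host among them, with DESeq2 (adjusted p = 0.00035) and with the likelihood ratio test (adjusted p = 0.0031). The other 4 had a log2FC between 0.42 and 0.86 with adjusted p between 0.628 and 0.642. Annotation gave 15 further lncRNA hosts outside the naming rule, of which 2 were tested, 1 higher and 1 lower.

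**Figure D5:**
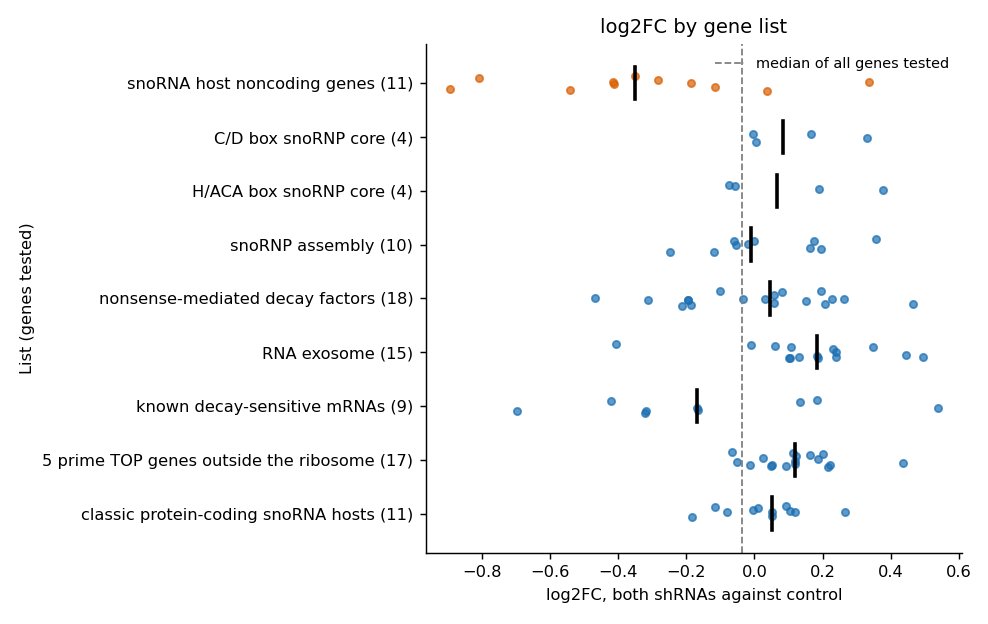
Knockdown log2FC (horizontal axis) of the snoRNA host noncoding genes and of 8 lists of pathway genes, with 1 point per gene and a bar at each list's median. The number of genes tested stands in parentheses and the dashed line marks the median of all genes tested, -0.04. The noncoding hosts have a median of -0.35, and the lists of exosome genes and TOP genes have medians of 0.18 and 0.12. No gene shown passed an adjusted p of 0.05 by edgeR, and without the first control sample the median of the noncoding hosts was 0.12.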

How the data were processed

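Per the submitters' processing notes, reads were aligned to GRCh37 with STAR 2.5.2a. The authors deposited 1 table of raw counts per gene with gene lengths, not normalized, made with FeatureCounts by assigning reads to exons and summing them by gene. Whether counting used strand is not given in the sources used here. Gene IDs were matched to symbols for 26966 of 27745 rows.

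Genes with fewer than 5 counts in at least 3 of 6 samples were removed (12373), leaving 15372. Counts were fitted in R 4.3.3 with edgeR 4.0.16 (TMM, quasi-likelihood, 3 groups in 1 model, 3 residual degrees of freedom) and p-values adjusted by Benjamini-Hochberg over all genes tested. Scripts were tested on simulated data. DESeq2 1.42.0, other scalings, no filter, the likelihood ratio test, a bias-adjusted fit, a replicate block and leaving out each sample were alternatives. log2 values for the spread used a pseudocount of 0.125 CPM. TPM was computed from the deposited counts and lengths.

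Members and gene lists were chosen with earlier results of these data known. Values in every sample were given for the 8 highest hosts per length and any host with an unadjusted p under 0.05, and list genes were named if highest per length or under that p in the knockdown. Lower hosts, neighbours and the marker genes were added by position or role. Sequences came from the GRCh37 annotation and RefSeq.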

Additional observations from a re-analysis of the deposited data

Results flagged for a closer look

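SNHG9 differed in direction between the hairpins. Against the control mean, both sh-MIR100HG-1 samples were higher and both sh-MIR100HG-2 samples lower, and the difference of sh-MIR100HG-2 from sh-MIR100HG-1 was -1.708 on the log2 scale (edgeR, unadjusted p = 0.0226, adjusted p = 0.509). It rests on 10 to 68 counts per sample, and its cause was not tested. Groups of 2 samples are too small for a test of single outlying samples.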

How the results depend on the processing

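No host passed an adjusted p of 0.05 in any of the 14 alternatives, the smallest being 0.194. Values of single hosts were counted for the knockdown in every host, and for the hairpin comparisons only in SNHG32, SNHG8 and SNHG9. Of these 280 values, 266 kept their direction and 14 turned. Of the 14, 3 turned other than by leaving out a sample. These were SNHG15 in the knockdown, at -0.0299 with upper quartile scaling, and SNHG32 between the hairpins. SNHG32 was at 0.0069 with DESeq2 size factors and at 0.007 with DESeq2. The hairpin values of the other hosts were not counted, and not all kept their direction. Hosts lower with sh-MIR100HG-2 numbered 9, and 10 with upper quartile scaling. Leaving out each sample in turn, the knockdown log2FC ran from -0.44 to 0.12 for EPB41L4A-AS1, -0.19 to 0.31 for SNHG15, -1.61 to 1.17 for SNHG18, -0.62 to 0.17 for SNHG25, -1.28 to 1.93 for SNHG27 and -0.43 to 0.28 for SNHG9, without a change of sign from -0.55 to -0.13 for SNHG8, -0.93 to -0.11 for SNHG19, -1.58 to -0.55 for SNHG28 and 0.09 to 0.52 for SNHG30, and SNHG32 between the hairpins from -0.22 to 0.16. The median over the hosts ran from -0.43 to 0.12 for the knockdown and from -0.30 to 0.17 for sh-MIR100HG-1. Both turned without sh-TRC replicate 1. For sh-MIR100HG-2 the median ran from -0.58 to -0.25 and did not turn. The number of hosts lower in the knockdown ran from 5 to 10.

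Hosts with an unadjusted p under 0.05 numbered 0 in the knockdown and 1 with upper quartile scaling and with the replicate block (SNHG32 in both), and 0 to 1 leaving out a sample. With sh-MIR100HG-1 there were 0, 1 without the filter (SNHG18) and 0 to 1 leaving out a sample, and with sh-MIR100HG-2 0 and 0 to 1. Between the hairpins there was 1, then 2 without the filter and with the block (SNHG18 and SNHG9 in both), and 0 to 2 leaving out a sample. Pathway genes under this p in the knockdown numbered 1, then 2 with DESeq2 size factors, 3 without the filter, 3 with DESeq2, 3 with the replicate block, and 0 to 4 leaving out a sample. The causes were not tested.

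Over all genes, the knockdown calls at an adjusted p of 0.05 were 0 in the quasi-likelihood fit, 129 with DESeq2, 109 with the likelihood ratio test and 392 of 21349 without the filter. The labels do not tie a replicate number to a shared batch, and with 2 samples a group the data do not settle whether it marks one: the correlations of the deviations of same-numbered samples were -0.205 between sh-TRC and sh-MIR100HG-1, 0.006 between sh-TRC and sh-MIR100HG-2 and 0.436 between the hairpins, and the block gave 0 calls. With the control numbers crossed, an alternative added after the data were seen, 0 hosts were called, and 0 hosts and 3 pathway genes had an unadjusted p under 0.05 in the knockdown. Depth limits SNHG9, SNHG18, SNHG27 and SNHG28, at 8.0 to 54.7 counts per sample on average.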
